A study of Oryza sativa with 4 samples.

Results

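The study listed rice loci with their expression in the *hd1–3* mutant and wild type. Among these, 88 probe sets outside chromosomes 6 and 11 carried an annotation that contains the word transposon. They were taken from 101 such probe sets on all chromosomes, from 1996 rows of the list used here, and from the 57194 probe sets of the array without its controls. The rows were ordered by the *hd1–3* against wild type folds of the same 4 arrays. The exact rule that chose them is not known beyond these folds. The members were thus chosen by the genotype folds, which are given below as a description with no test. The signals themselves came from the deposited array values. Each member is 1 probe set, that is several short probes meant to read the same transcript, and is called here by its MSU locus name, whose digits after Os give the chromosome.

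Leaves were collected from 35-day-old plants grown at 28 °C. The *hd1–3* mutant carries a functionally deficient *Hd1*, the CCT-domain gene that promotes flowering under SD and delays it under LD condition, and its reference was the *japonica* wild type Zhonghua11. Under SD condition the plants received 11.5 h of light and 12.5 h of dark, and leaves were taken 3 h after light. Under LD condition they received 15 h of light and 9 h of dark, and leaves were taken 5 h after light. Each of *hd1–3* SD, wild type SD, *hd1–3* LD and wild type LD was measured on 1 Affymetrix Rice Genome Array, and the sources used here do not say whether an array holds 1 plant or a pool, nor how many lines or clones stand for the mutant.

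Transposable elements are sequences that can move or copy themselves within a genome. Retrotransposons do so through an RNA copy that is reverse transcribed. Ty1-copia and Ty3-gypsy elements are the main groups with long terminal repeats, while SINE elements are short and borrow the enzymes of other elements. DNA transposons such as CACTA (En/Spm), Ac/Ds, Mutator and Pong elements are moved by a transposase. Plants keep most elements silent through DNA methylation, methylation of histone H3 at lysine 9 and small interfering RNAs, and many copies resemble each other in sequence. Locus annotations of this kind rest on sequence resemblance to known elements, so an annotated locus need not be an active element.

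By annotation, 58 members were retrotransposons and 30 were DNA transposons. The retrotransposons were 47 unclassified loci, 7 Ty3-gypsy, 3 Ty1-copia and 1 SINE locus. The DNA transposons were 15 unclassified loci, 8 CACTA, 3 Ac/Ds, 3 Pong and 1 Mutator locus. They lay on all 10 remaining chromosomes, with the most on chromosome 1 (18 loci), followed by chromosome 3 (11 loci) and chromosomes 7 and 9 (10 loci each), and the fewest on chromosome 8 (3 loci). For 23 members a platform table named 1 gene, which lay on the chromosome of the locus for 22 of them. The exception was LOC_Os10g11100, whose named gene lay on chromosome 2.

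Many members were measured by probe sets that other transcripts can also bind. The suffix _x_at, which marks probe sets in which some probes are identical or similar to other sequences, was borne by 32 of the 88 members (36.4%), against 166 of 1580 other listed loci off chromosomes 6 and 11 (10.5%) and 12.5% of all probe sets. A further 7 members (7.95%) had the suffix _s_at, in which all probes are shared by several transcripts. The remaining 49 had neither suffix. For these 39 members, signal from related copies cannot be told apart from signal of the named locus.

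Many members were dim on at least 1 array. Of the 88 members, 69 reached a signal of 100 on at least 1 array, 26 did so on all 4 arrays (29.5%) and 19 did so on none (21.6%). Among the other listed loci off chromosomes 6 and 11, 48.7% did so on all 4 arrays and 13.2% on none. Over all probe sets these shares were 36.6% and 50.8%. Below a signal of 100, a floor chosen here, folds were noisy. Estimated from how far the SD and LD folds of a probe set lay apart, the spread of a log2 fold was 1.14 where the mean signal was 50 to 100 and 0.28 where it was 1000 or more. The median signal of the members was 97.7 in *hd1–3* SD and 110 in wild type SD, and 107 in *hd1–3* LD and 147 in wild type LD. For the other listed loci off chromosomes 6 and 11 the medians were 149 in *hd1–3* SD and 147 in wild type SD, and 161 in *hd1–3* LD and 174 in wild type LD. Over all probe sets they lay between 63.7 and 69.7. Wild type LD had the highest median of the 4 arrays in each of these 3 sets.

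By element class, the median of the mean signals was 144 for unclassified and 128 for Ty3-gypsy retrotransposons, and 141 for unclassified and 119 for CACTA transposons. It was 107 for the Ty1-copia loci, 83.3 for the Pong loci and 56.0 for the Ac/Ds loci. The single SINE locus averaged 156 and the single Mutator locus 57.6. The brightness of a probe set also depends on its probes, so these values describe the probe sets and do not order the classes by transcript amount. A signal of 100 was reached on at least 1 array by 50 of 58 retrotransposon loci and by 19 of 30 DNA transposon loci, and by none of the Ac/Ds and Mutator loci.

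**Figure D1:**
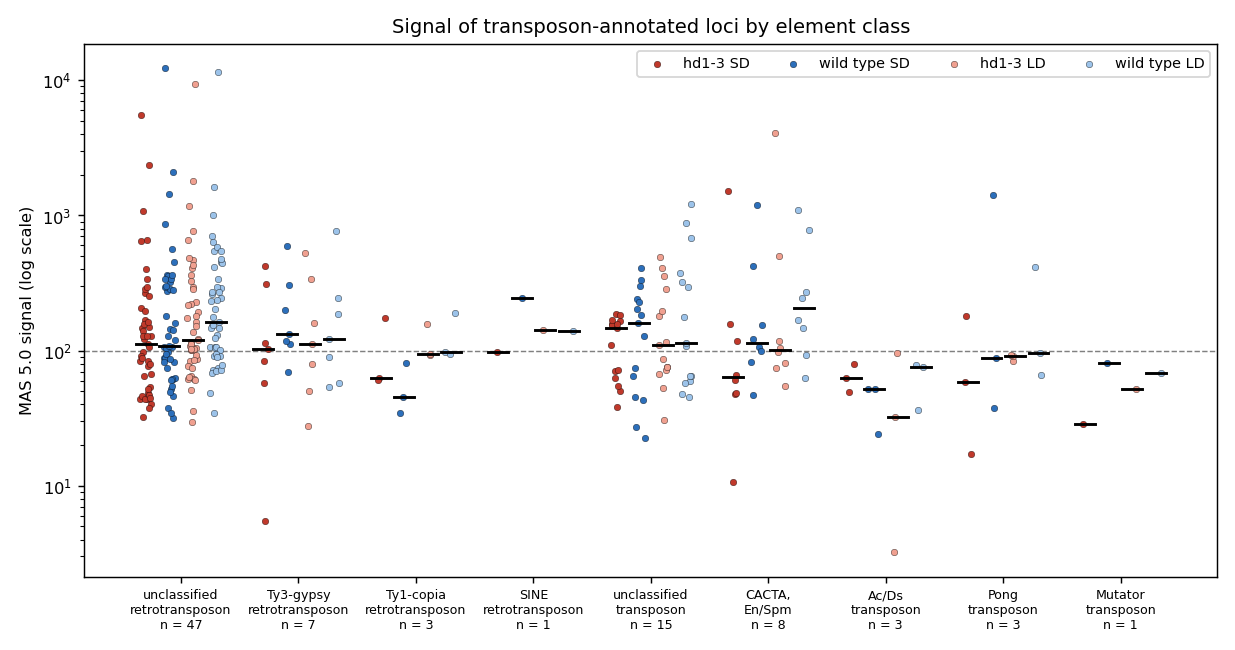
Signal (MAS 5.0, log scale) of the 88 members by element class; each point is 1 member on 1 array, the black bars are medians, and the dashed line marks a signal of 100. Most points lie near or below the dashed line, and only a few unclassified retrotransposon, CACTA, Pong and unclassified transposon points exceed 1000.

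The brightest member was LOC_Os10g31330, an unclassified retrotransposon locus with an _x_at probe set, at 5568 in *hd1–3* SD and 12288 in wild type SD, and at 9430 in *hd1–3* LD and 11494 in wild type LD. Its lowest array was *hd1–3* SD, and the other 3 arrays lay within a narrow range. The brightest CACTA member, LOC_Os01g09220, had signals of 1504 in *hd1–3* SD and 1202 in wild type SD, and 4043 in *hd1–3* LD and 1097 in wild type LD. Only *hd1–3* LD stood apart there. This member also has an _x_at probe set, and the related probe sets given below as its companions were not highest in *hd1–3* LD.

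The signals of 4 further members among the 8 brightest lay between 265 and 2102. LOC_Os03g41200, an unclassified retrotransposon locus, had signals of 1083 in *hd1–3* SD and 2102 in wild type SD, and 766 in *hd1–3* LD and 1615 in wild type LD, so that both mutant arrays lay below both wild type arrays. LOC_Os09g25690, of the same class, gave 645 in *hd1–3* SD and 860 in wild type SD, and 466 in *hd1–3* LD and 1006 in wild type LD, again with both mutant arrays below both wild type arrays. The brightest Ty3-gypsy member, LOC_Os12g33910, gave 314 in *hd1–3* SD and 590 in wild type SD, and 523 in *hd1–3* LD and 765 in wild type LD, with both mutant arrays below both wild type arrays and the day lengths overlapping. LOC_Os02g32250, an unclassified retrotransposon locus, gave 265 in *hd1–3* SD and 564 in wild type SD, and 655 in *hd1–3* LD and 706 in wild type LD, and only *hd1–3* SD was clearly lower.

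The brightest members of the small classes were dimmer. The SINE member LOC_Os09g32930 was highest in wild type SD, at 97.8 in *hd1–3* SD and 244 in wild type SD, and 143 in *hd1–3* LD and 140 in wild type LD. The Ty1-copia member LOC_Os08g14109 was higher on both mutant arrays, at 175 in *hd1–3* SD and 45.5 in wild type SD, and 158 in *hd1–3* LD and 98.1 in wild type LD. The brightest Ac/Ds member, LOC_Os02g30960, stayed between 52.2 and 96.9 on the 4 arrays, and the Mutator member LOC_Os09g30270 between 28.7 and 81.6, both below the floor.

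Between the genotypes, more members were above 2-fold lower than higher in *hd1–3*. The fold divides the signal of *hd1–3* by that of wild type within a day length, on the log2 scale after 1 is added to each, with 1 array per group and therefore no replicate check. Under SD condition 9 members were above 2-fold higher and 30 above 2-fold lower in *hd1–3*, where the shares over all probe sets were 13.9% higher and 15.1% lower. Under LD condition 7 members were above 2-fold higher and 22 above 2-fold lower, where the shares over all probe sets were 12.3% and 15.5%. These folds chose the members, so nothing is read from the difference. The median log2 fold of the members was -0.40 under SD and -0.31 under LD condition, against -0.05 and -0.14 for the other listed loci off chromosomes 6 and 11, and -0.01 and -0.05 over all probe sets. By order, the medians were -0.40 under SD and -0.29 under LD condition for the retrotransposon loci, and -0.41 and -0.36 for the DNA transposon loci. Among the 56 members whose brighter array of each pair reached 100, the medians were -0.93 and -0.42. The quantity of RNA per cell and the number of cells of a type cannot be told apart in whole leaves. The ratio of 3′ to 5′ signal of a GAPDH control pair, a sign of RNA quality, was 4.16 in *hd1–3* SD and 1.64 in wild type SD, and 4.25 in *hd1–3* LD and 1.48 in wild type LD, and moved with the genotype. For actin it ran the other way, at 3.75 in *hd1–3* SD and 4.46 in wild type SD, and 2.92 in *hd1–3* LD and 3.62 in wild type LD. For cyclophilin it was 1.69 in *hd1–3* SD and 1.42 in wild type SD, and 1.67 in *hd1–3* LD and 1.59 in wild type LD. The part of these ratios in the folds was not tested.

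In both day lengths alike, 2 members were above 2-fold higher and 9 above 2-fold lower in *hd1–3*, and 1 was above 2-fold in opposite directions. Over all probe sets 3.26% were higher and 4.26% lower in both. All 12 were among the 56 members with bright pairs, and the shares over all bright pairs were 1.22% higher, 1.31% lower and 0.435% opposite. A further 44 members were above 2-fold under 1 day length only, and 32 under neither. The 9 lower members were 6 unclassified and 1 Ty3-gypsy retrotransposon locus, 1 Pong locus and 1 CACTA locus. Of the 9, 8 had probe sets without the suffixes _x_at and _s_at.

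**Figure D2:**
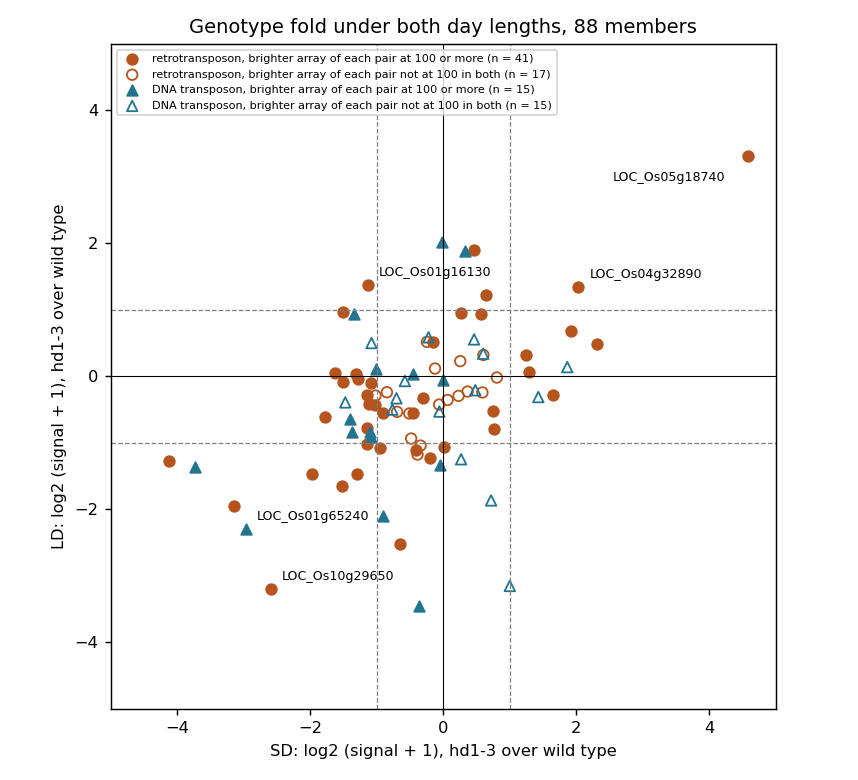
Log2 fold of signal + 1, *hd1–3* over wild type, under SD (horizontal) and LD condition (vertical) for each of the 88 members; filled symbols have a brighter array of at least 100 in both pairs, and dashed lines mark 2-fold. LOC_Os05g18740 lies alone at the upper right with 4.58 and 3.32, and more points lie left of and below 0 than right of and above it.

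The largest difference belonged to LOC_Os05g18740, an unclassified retrotransposon locus, which had signals of 2364 in *hd1–3* SD and 97.6 in wild type SD, and 1794 in *hd1–3* LD and 179 in wild type LD. The mutant arrays lay far above the wild type arrays, at least 23.6-fold higher under SD condition with the dim wild type signal raised to the floor of 100, and with a log2 fold of 3.32 under LD condition. LOC_Os04g32890, an unclassified retrotransposon locus, is measured by a probe set with the same name stem, which the array design gives to probe sets of 1 transcript cluster. It gave 339 in *hd1–3* SD and 82.0 in wild type SD, and 329 in *hd1–3* LD and 130 in wild type LD. These 2 loci lie on different chromosomes but are probed from 1 cluster, so they are not independent examples.

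Of the 6 members with the largest drop in both day lengths, LOC_Os10g29650 showed a log2 fold of -2.59 under SD and of -3.19 under LD condition. This unclassified retrotransposon locus had signals of 48.7 in *hd1–3* SD and 299 in wild type SD, and 51.1 in *hd1–3* LD and 476 in wild type LD. Both mutant arrays were below the floor, and with those signals raised to 100 the locus was at least 2.99-fold lower under SD and at least 4.76-fold lower under LD condition.

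The Pong member LOC_Os01g65240 had signals of 180 in *hd1–3* SD and 1424 in wild type SD, and 84.5 in *hd1–3* LD and 417 in wild type LD. Both mutant arrays lay below both wild type arrays, with log2 folds of -2.97 and -2.29, and within each genotype the SD array was the higher one. LOC_Os01g57599, an unclassified retrotransposon locus, had signals of 40.3 in *hd1–3* SD and 365 in wild type SD, and 115 in *hd1–3* LD and 448 in wild type LD. A companion probe set with the same name stem, not in the list, pointed the same way, at 24.4 in *hd1–3* SD and 160 in wild type SD, and 65.8 in *hd1–3* LD and 173 in wild type LD.

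The other 3 differed in how far the mutant signals sank. LOC_Os05g33120, an unclassified retrotransposon locus, stayed above the floor on all arrays, at 123 in *hd1–3* SD and 354 in wild type SD, and 174 in *hd1–3* LD and 546 in wild type LD. LOC_Os12g30120, of the same class, gave 84.3 in *hd1–3* SD and 336 in wild type SD, and 106 in *hd1–3* LD and 295 in wild type LD. The CACTA member LOC_Os12g12390 gave 10.7 in *hd1–3* SD and 155 in wild type SD, and 104 in *hd1–3* LD and 269 in wild type LD. In all 3, both mutant arrays lay below both wild type arrays, and for LOC_Os12g12390 the SD log2 fold of -3.73 rests on a mutant signal far below the floor, where the bound is at least 1.55-fold.

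LOC_Os01g16130, an unclassified retrotransposon locus, was the member above 2-fold in opposite directions. Its signals were 663 in *hd1–3* SD and 1450 in wild type SD, and 1176 in *hd1–3* LD and 455 in wild type LD. The log2 fold was -1.13 under SD and 1.37 under LD condition, so the mutant was lower under SD and higher under LD condition, at signals well above the floor.

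**Figure D3:**
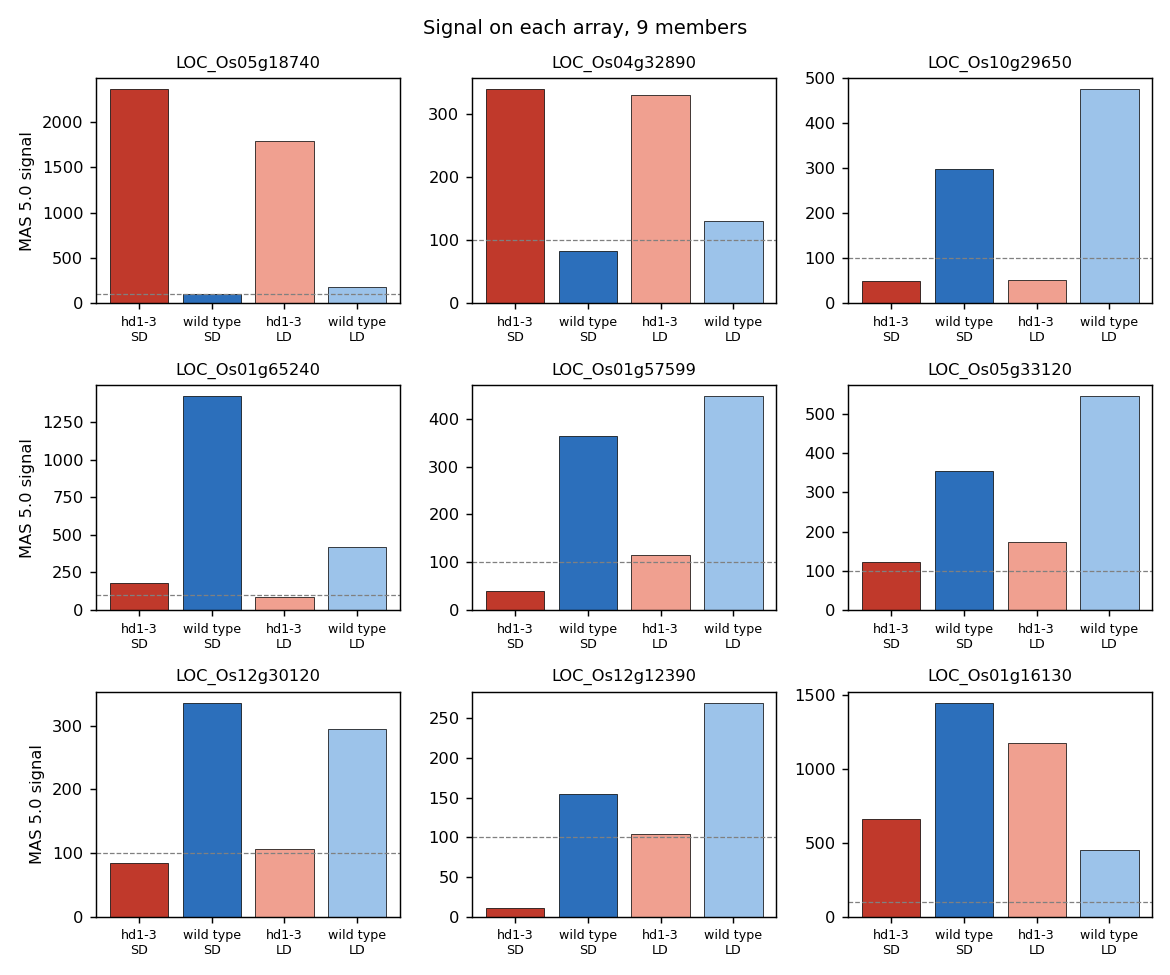
Signal (MAS 5.0, linear axis from 0) on each of the 4 arrays for 9 members above 2-fold in both day lengths, namely both higher members, the 6 lower members with the largest drop and the member with opposite directions; each bar is 1 array and the dashed line marks a signal of 100. Both mutant bars exceed both wild type bars in LOC_Os05g18740 and LOC_Os04g32890, both lie below in the next 6 loci, and LOC_Os01g16130 changes direction between SD and LD.

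Companion probe sets gave a second reading for some members. Of the 88 members, 43 shared a name stem with at least 1 other probe set, in 115 pairs. In 20 of these pairs both probe sets averaged 100 or more and the companion was not itself a member. These 20 pairs came from 14 members, so some members entered more than 1 pair. The sign of the genotype fold was the same in 15 of the 20 pairs under SD and in 15 under LD condition, and the sign of the SD over LD fold was the same in 16 pairs in *hd1–3* and in 14 in wild type. Pairs of 1 stem share sequence and arrays. Members that differed from bright companions included LOC_Os04g18980, LOC_Os01g09220 and LOC_Os12g33910. LOC_Os04g18980 had 65.0 in *hd1–3* SD and 145 in wild type SD, and 121 in *hd1–3* LD and 246 in wild type LD. Its brightest companion gave 2597 in *hd1–3* SD and 2182 in wild type SD, and 1831 in *hd1–3* LD and 2182 in wild type LD. LOC_Os01g09220 had a log2 genotype fold of 1.88 under LD condition, against -0.60 and 0.27 in its companions. For LOC_Os12g33910 the folds were -0.91 under SD and -0.55 under LD condition, against 0.52 and 0.08 in its bright companion.

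A group of 3 retrotransposon members on chromosomes 3 and 10 shared another stem. LOC_Os03g23770 had signals of 112 in *hd1–3* SD and 277 in wild type SD, and 229 in *hd1–3* LD and 640 in wild type LD. LOC_Os03g61370 was dimmer, with 54.2 in *hd1–3* SD and 121 in wild type SD, and 136 in *hd1–3* LD and 236 in wild type LD. Both were lower in the mutant within each day length. Wild type SD lay above *hd1–3* LD in LOC_Os03g23770 and below it in LOC_Os03g61370. LOC_Os10g06260 stayed between 45.2 and 82.1 on all arrays. All 3 were lowest in *hd1–3* SD.

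Over the 52 members with a mean signal of 100 or more, *hd1–3* SD was the array with the lowest signal for 27 (51.9%), *hd1–3* LD for 10, wild type SD for 8 and wild type LD for 7. Among 1153 other listed loci off chromosomes 6 and 11 at the same signal, *hd1–3* SD was the lowest array for 28.9%, and among all 24121 such probe sets for 28.5%. Wild type LD was the highest array for 26 of the 52 members, against 32.4% of the other listed loci and 28.3% of all probe sets. The genotype part of this pattern was used to choose the members. For 20 of 38 retrotransposon and 7 of 14 DNA transposon loci the lowest array was *hd1–3* SD, so both orders shared it. The full order with wild type LD highest, then *hd1–3* LD, wild type SD and *hd1–3* SD was held by 9 of the 52 members (17.3%), against 8.15% of the other listed loci and 9.17% of all probe sets.

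**Figure D4:**
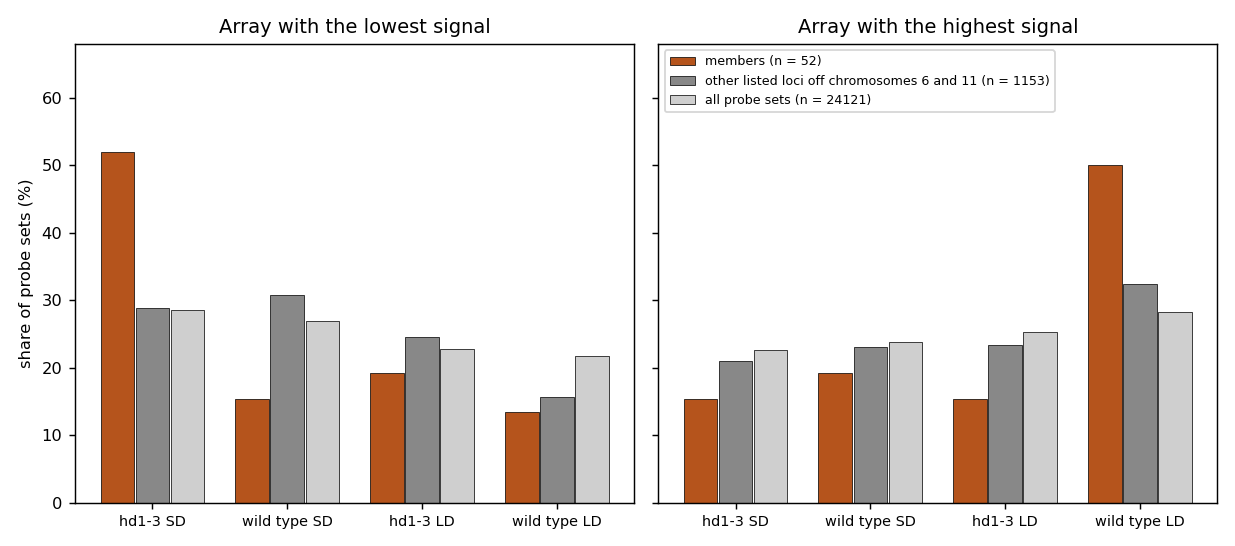
Share of probe sets (%) whose lowest signal (left) or highest signal (right) fell on each array, for members, other listed loci and all probe sets with a mean signal of 100 or more. The tallest member bars are *hd1–3* SD among the lowest arrays (51.9%) and wild type LD among the highest.

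The contrast of SD with LD asks whether the day length moves these loci in leaves of both genotypes, and the list was not made on it. It comes from the same 4 arrays, however. The time after light differs along with the day length, so these cannot be told apart. Limma with a genotype and a day length term was fitted to log2(signal + 1) of every probe set that reached 100 on any array. There were 28133 of these, and p-values were adjusted over all of them by the Benjamini-Hochberg method. Of the 88 members 69 could be tested, some of them through 1 bright array alone.

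Of these 69, 6 (8.70%) were lower and 1 (1.45%) was higher under SD than under LD condition at an adjusted p under 0.05. Over all probe sets tested the shares were 7.09% lower and 6.53% higher, so the share of lower members was near the background. At an unadjusted p under 0.05, 18 members were lower and 4 higher, where the shares over all probe sets were 14.8% lower and 12.2% higher. The median log2 difference, SD minus LD, was -0.37 for the members, against -0.17 for the other listed loci off chromosomes 6 and 11 and -0.05 over all probe sets. It lay below 0 in 50 of the 69 members (72.5%), in 59.4% of the other listed loci and in 54.3% of all probe sets. The median was -0.36 for 50 retrotransposon and -0.60 for 19 DNA transposon loci. Both SD arrays lay below both LD arrays in 18 members (26.1%), against 29.0% of all probe sets, and above them in 3 members (4.35%), against 23.6%. With 1 residual degree of freedom per probe set the calls rest on the variance that limma shares between probe sets. Without its intensity trend limma called 0 of the 69 members, 18 of which had an unadjusted p under 0.05. Fits with 1 array left out had no genotype term either, so the genotype folds enter their differences. With the day length moved all 24 *Bacillus subtilis* control probe sets, which were brighter on both SD arrays than on both LD arrays, by 1.41- to 2.13-fold on average, and brightest in *hd1–3* SD. Their part in the differences was not tested.

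Both SD arrays were below both LD arrays for 5 of the 6 lower members. LOC_Os01g28740 and LOC_Os12g22810 were read by _x_at probe sets and LOC_Os03g23770 by an _s_at probe set. Signal from related copies cannot be told apart there. LOC_Os01g28740, the brightest unclassified transposon locus, had signals of 157 in *hd1–3* SD and 407 in wild type SD, and 490.5 in *hd1–3* LD and 875 in wild type LD. Its difference was -1.37 on the log2 scale (standard error 0.221, limma adjusted p = 0.0036). With 1 array left out in turn, and no genotype term, it ran between -2.05 and -0.68. A companion of the same stem had 132 in *hd1–3* SD and 222 in wild type SD, and 365 in *hd1–3* LD and 783 in wild type LD, with a difference of -1.64 (limma adjusted p = 0.00197). A pair of further companions with means above 100 differed by -0.56 and -1.25 and did not pass, with adjusted p = 0.343 and 0.142 in limma.

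The CACTA member LOC_Os12g22810 had signals of 159 in *hd1–3* SD and 420 in wild type SD, and 499 in *hd1–3* LD and 779 in wild type LD. The difference was -1.27 (limma adjusted p = 0.00778), and between -1.97 and -0.57 with 1 array left out. Its companions gave -0.66 and -0.55 and did not pass (limma adjusted p = 0.0962 and 0.13). LOC_Os03g21660, an unclassified transposon locus, had 155 in *hd1–3* SD and 332 in wild type SD, and 359 in *hd1–3* LD and 679 in wild type LD, with a difference of -1.12 (limma adjusted p = 0.0095), and between -1.66 and -0.57 with 1 array left out. Its companion differed by -1.05 and did not pass (limma adjusted p = 0.2). In both loci the LD signal was more than 2-fold the SD signal on average, and within each day length the mutant was lower.

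The other 3 were retrotransposon loci. LOC_Os07g17260 had signals of 167 in *hd1–3* SD and 365 in wild type SD, and 405 in *hd1–3* LD and 543 in wild type LD, with a difference of -0.92 (limma adjusted p = 0.0359). The call was lost after quantile normalization (limma adjusted p = 0.0806) and with a filter at 500 (limma adjusted p = 0.0772), and the difference ran between -1.48 and -0.36 with 1 array left out. LOC_Os01g02040 had 129 in *hd1–3* SD and 52.0 in wild type SD, and 284 in *hd1–3* LD and 272 in wild type LD, with a difference of -1.75 (limma adjusted p = 0.0177). Its wild type SD signal lay below the floor, and the difference ran between -2.39 and -1.10 with 1 array left out. LOC_Os03g23770, one of the 3 members of a shared stem, differed by -1.12 (limma adjusted p = 0.0154), although its wild type SD signal exceeded its *hd1–3* LD signal. It was not called with the filter at 500 (limma adjusted p = 0.0805), and ran between -1.86 and -0.38 with 1 array left out. Of its stem partners, LOC_Os03g61370 did not pass (-1.14, limma adjusted p = 0.103) and LOC_Os10g06260 was too dim to test. All the fits with 1 array left out also lacked the genotype term, so the ranges given for these 6 loci mix both changes. LOC_Os02g32250, whose signals are given above, was the next by p and did not pass, with -0.81 (limma adjusted p = 0.0611).

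The Pong member LOC_Os01g65240 was the only one higher under SD condition, by 1.43 on the log2 scale (standard error 0.251, limma adjusted p = 0.00559). Its day lengths overlapped, because *hd1–3* SD (180) was below wild type LD (417). Without the wild type SD array the difference was -0.059, in a fit that also lacked the genotype term. Within each genotype the SD array was the higher one, by 1.09 in *hd1–3* and 1.77 in wild type on the log2 scale.

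**Figure D5:**
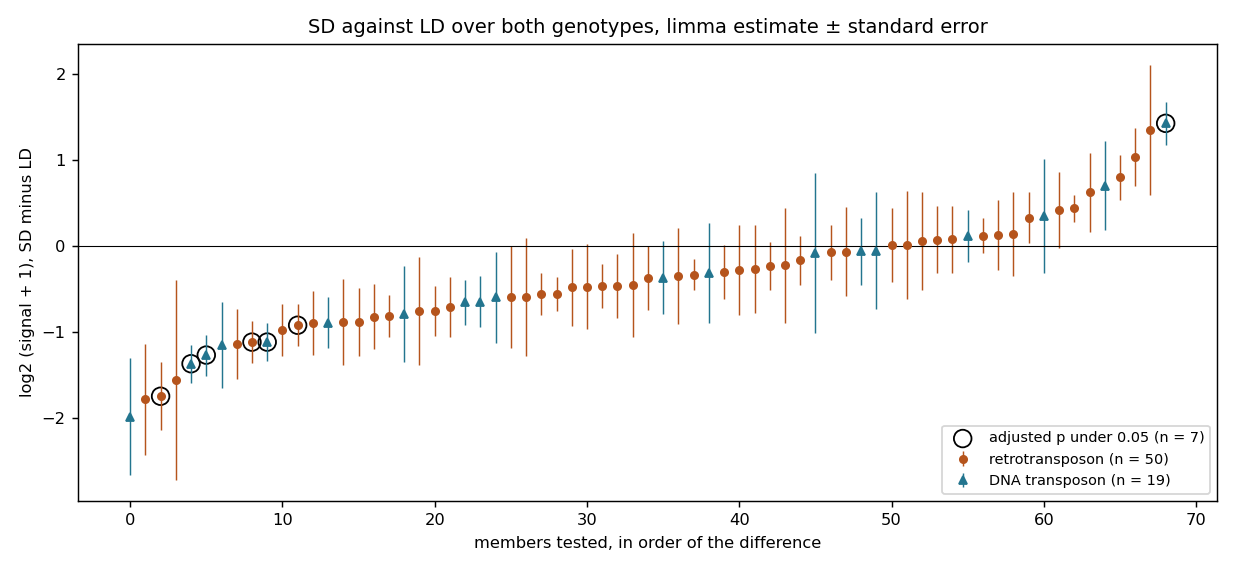
Limma estimate of log2 (signal + 1), SD minus LD, with its standard error for the 69 members tested, in order of size; circled points passed an adjusted p of 0.05. Of the 69 estimates 50 lie below 0, and the circled points are 6 below 0 and 1 above.

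Genes that act on transposon silencing were read from a list of 32 names, of which 12 were matched to a probe set and 10 were bright enough to test. The unmatched names were not analysed here. *ROS1c* had 2 matched probe sets, *DRM3* had 3 and *JMJ706* had 2. For each of these genes only the probe set with the highest mean signal was used, and the others are not given. By limma 3 of the 10 were lower and 0 higher under SD condition at an adjusted p under 0.05, where the shares over all probe sets tested were 7.09% lower and 6.53% higher. Without its intensity trend limma called 0 of the 28133 probe sets, so none of these 3. At an unadjusted p under 0.05 there were 4, and 9 had an estimate below 0, against 54.3% of all probe sets, with a median of -0.41. *ROS1c*, a DNA demethylase gene, had signals of 296 in *hd1–3* SD and 359 in wild type SD, and 970 in *hd1–3* LD and 963 in wild type LD. The difference was -1.56 (standard error 0.19, limma adjusted p = 0.000919), and the genotypes were alike within each day length.

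The other 2 that passed encode Argonaute proteins that bind small interfering RNAs in RNA-directed DNA methylation. *AGO4b* had 1375 in *hd1–3* SD and 1337 in wild type SD, and 1901 in *hd1–3* LD and 2210 in wild type LD (difference -0.60, limma adjusted p = 0.0309). *AGO4a* had 2884 in *hd1–3* SD and 2891 in wild type SD, and 3863 in *hd1–3* LD and 4129 in wild type LD (difference -0.47, limma adjusted p = 0.0432). In each, both SD arrays lay below both LD arrays.

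Neither the DNA methyltransferase genes *DRM2* (-0.13) and *DRM3* (-0.46), nor the RNA-dependent RNA polymerase gene *RDR2* (-0.36), the histone demethylase gene *JMJ706* (-0.23) and the chromodomain gene *LHP1* (-0.13) passed, with limma adjusted p between 0.154 and 0.668. *MET1-2*, a maintenance DNA methyltransferase gene, was tested through its single bright array of 206 in wild type LD and did not pass (limma adjusted p = 0.776). *MET1-1* and *CMT3a*, also DNA methyltransferase genes, stayed below 86.0 on every array and were not tested.

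Between the genotypes, 8 of the 9 genes of this list with bright pairs were within 2-fold under both day lengths. Over all probe sets with a mean signal of 100 or more, 21823 of 24121 were too, so the count was near that share. The gene with bright pairs that was not within 2-fold was *SDG712*, a SET domain gene that the study picked from these arrays. Its signals were 86.9 in *hd1–3* SD and 704 in wild type SD, and 25.8 in *hd1–3* LD and 912 in wild type LD. Both mutant arrays lay below the floor and both wild type arrays far above it. Its SD minus LD difference of 0.67 did not pass (limma adjusted p = 0.379).

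The arrays bore the marks of leaf. Each marker was read from its brightest matched probe set. Of 5 leaf genes 4 were matched, at signals between 11924 and 54000.5 on all arrays, all within 2-fold between the genotypes. The 6 matched shoot meristem, pollen and seed markers were all below 100, and the root markers were not matched. All arrays had the same trimmed mean of 500, and between 24026 and 24717 probe sets at 100 or more.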

How the data were processed

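Per the labels, leaf RNA was biotin-labelled and hybridised to 4 arrays (1 for each combination of genotype and day length). The deposited values are linear signal intensities, which the authors made with MAS 5.0, without detection calls; the target value of the software was not given in the sources. From the values, each array was scaled to a trimmed mean of 500. Fold columns of the study's list were not used: only its probe set, locus and annotation columns were read, and only from 1996 rows. The members and gene lists were chosen with earlier results of these data known. After removal of 187 control probe sets from 57381, folds were computed on log2(signal + 1). Limma 3.58.1 in R 4.3.3 (lmFit, eBayes with trend; 2 arrays per day length) tested SD minus LD with genotype in the model, for probe sets that reached 100 on any array, and was checked on simulated data. There it recovered 61% of the changes of 1 and 81% of the changes of 2. It made 24 false calls, with 30853 probe sets tested. The number of changes put into the simulated data is not given here, so the share of false calls among all calls cannot be read from these values. That share may have been above the adjusted p threshold. The day length calls may therefore hold more false calls than the threshold states. The limma residual measures how far both genotype folds lie apart, and these folds helped choose the members. Limma added 8.29 prior degrees of freedom. Nothing says that arrays come from separate plants, so p-values measure only the spread between these arrays. Their number limits the precision.

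Named are the brightest member of each class, the 8 brightest of all classes, the members highest and lowest in *hd1–3* by the smaller of both folds (at most 6 each, bright pairs), those above 2-fold in opposite directions, the 8 smallest p for day length, members with a shared stem, and the measured silencing genes. Other names were chosen after their values were seen. The alternatives tried were adding 32 rather than 1, quantile normalization, scaling by bright probe sets, other filters and probe sets without _x_at and _s_at. Further ones were no genotype term, no trend, and each array left out together with the genotype term. Gene names came from a platform table and RefSeq assembly ASM3414082v1, whose coordinates were not used, and no sequence was used here. Other steps used Python 3.11.15, pandas 2.3.3 and numpy 2.4.6.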

Additional observations from a re-analysis of the deposited data

Results flagged for a closer look

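LOC_Os01g16130, an unclassified retrotransposon locus, was lower in *hd1–3* under SD condition (log2 fold -1.13) and higher under LD condition (log2 fold 1.37). It stands out because the genotype effect ran in opposite directions in the 2 day lengths. The difference between the day lengths was not tested, since each group has 1 array.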

How the results depend on the processing

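The genotype term sets SD against LD within each genotype; with 1 array per group no replicate number could serve as a further block. For SD against LD, the median difference of the members was -0.32 with 32 added, -0.33 after quantile normalization, -0.34 after scaling by bright probe sets, and -0.33 for the 40 members without _x_at or _s_at, of which 3 were called lower under SD. With a filter at 500, 17 members were tested, 3 were called lower and the median was -0.56. Without a genotype term limma called 1298 probe sets, and 0 members higher and 0 lower (0 and 8 at an unadjusted p under 0.05). Without trend it called 0 of 28133 probe sets (5388 at an unadjusted p under 0.05) and 0 members in either direction (3 higher and 15 lower unadjusted), against 3831 probe sets with it. With each array left out in turn, limma called 154 to 348 probe sets, 0 members higher in every case and 0 to 1 lower, and the median was -0.61 to -0.22. LOC_Os01g65240 ranged from -0.059 without the wild type SD array to 2.91 without the *hd1–3* SD array. For *hd1–3* against wild type, the median folds under SD and LD condition were -0.30 and -0.24 with 32 added, -0.93 and -0.42 for bright pairs at 100, and -0.93 and -0.20 for the 8 members at 500, of which 1 was higher and 0 lower in both. The LD median was -0.22 after quantile normalization and -0.42 without _x_at and _s_at probe sets. The cause of these shifts was not tested, except that fewer members or arrays entered several of them. Depth here is signal over background, and 19 members never reached 100.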
